A study of Schmidtea mediterranea with 8 samples.

Results

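Levels of 4 metabolic transcripts, cyp3G1 (SMED30004747), cyp3143A1 (SMED30019040), adss (SMED30003172) and slc25a-19 (SMED30010366), were examined in sorted cells of the adult planarian flatworm Schmidtea mediterranea. They are 4 of the 17882 transcripts in the table and were taken by their identifiers. Their names are those of the study, which had picked them as candidates from transcripts that were lowered in whole worms after chd4 or p53 RNAi, which are other samples than those used here. Cells stained with the DNA dye Hoechst were separated by flow cytometry into X1 cells, which hold the dividing stem cells called neoblasts, and Xins cells, which withstand irradiation and are mostly post-mitotic. PolyA RNA of each fraction was sequenced in 4 replicate libraries, giving 8 libraries from adult animals. No treatment, strain or genotype is named in the labels, and both fractions are mixtures of cell types. Nothing in the labels says that replicates came from separate sorts, so p-values measure the spread between these libraries, which may be technical.

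Cytochrome P450 enzymes are heme proteins that insert an oxygen atom into their substrates. They take electrons from NADPH-cytochrome P450 reductase and, for some reactions, from cytochrome b5, and they act on steroids, fatty acids and foreign compounds. In mammals the CYP3A enzymes are best known from the liver and the intestine. Adenylosuccinate synthetase, encoded by adss, joins aspartate to IMP in the first of the steps that turn IMP into AMP, so it stands where the purine pathway branches toward adenine nucleotides. Carriers of the SLC25 family move metabolites, nucleotides and cofactors across the inner membrane of mitochondria.

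In the study's tables the best protein hit was Cytochrome P450 3A9 for cyp3G1, Cytochrome P450 3A12 for cyp3143A1 and Adenylosuccinate synthetase for adss. For slc25a-19 it was Mitochondrial dicarboxylate carrier, and the name slc25a-19 is kept here as the study's name. By whole-mount in situ hybridization, the study placed cyp3G1 and cyp3143A1 in the gut, and adss and slc25a-19 in the gut together with discrete mesenchymal cells. With fluorescent probes it also found adss in epidermal cells. Its discussion counts adss and slc25a-19 among genes shared by the gut and the epidermal lineage.

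The primers with which the study cloned each gene identify the piece of transcript behind those in situ patterns. They are shown because they tie each name to a sequence, and the vector tails that all primers share were removed. Each is written 5′ to 3′ in lower case, the right primer on the opposite strand.
cyp3G1 left: tcggtctcctgttgagttac
cyp3G1 right: attcgtcttcttgtggtcag
cyp3143A1 left: caaatacaacatccctggtc
cyp3143A1 right: caatacagtttcttggaccg
adss left: gaaaaggcaagcttgtagac
adss right: actgcacactgcaaaactg
slc25a-19 left: ctacacaatgcaattaaaggttaacg
slc25a-19 right: tgacaaatgccggtacaattcc

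Values are RPKM, reads scaled by transcript length and by library size, which allow levels of different genes to be compared per length. The steps between low values also gave the whole reads behind each RPKM, 14323705 to 15523242 reads per library in all. The 8 neoblast and replication transcripts listed as markers (a Piwi-like protein, PCNA and MCM2 to MCM7) were all higher in X1, with a summed level of 3616 to 3971 RPKM in X1 and 68.8 to 157 RPKM in Xins. All 41 transcripts with an AGAT-1 mesenchymal in situ pattern, which marks post-mitotic epidermal progeny, were higher in Xins, with a summed level of 165 to 331 RPKM in X1 and 9594 to 14942 RPKM in Xins. Of 20 transcripts with a gut pattern, 16 were tested, of which 13 were higher in Xins and 3 in X1. These 3 were the transcription factor genes zfp-2 and nkx-2.2 and SMED30033179 (hit EH domain-containing protein 1), so the gut marker fixed for the fractions, nkx-2.2, did not mark Xins. The summed gut pattern was 109 to 168 RPKM in X1 and 241 to 417 RPKM in Xins. None of the defining markers was at 0, and 1 of the 41 AGAT-1 pattern transcripts was at 0 in all X1 libraries.

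All 4 genes were higher in Xins than in X1, and for each of them every Xins library lay above every X1 library. By mean residual expression in X1 they are described here as 2 levels, a grouping read from these values. cyp3G1 and adss kept 39.4% and 36.3% of their mean Xins level, and cyp3143A1 and slc25a-19 kept 4.03% and 4.92%. Differences are X1 minus Xins on the log2(RPKM + 1) scale, from limma fitted to the 15563 transcripts with a mean of at least 1 RPKM, and an adjusted p under 0.05 was called. The scale understates the difference of low transcripts. Of all tested transcripts, 77.2% were called, 41.7% as higher in Xins and 35.5% as higher in X1. Every Xins library lay above every X1 library in 38.7% of them and every X1 library above every Xins library in 32.5%, so a difference in this direction is common in these fractions. The 4 genes passed the filter, but cyp3143A1 and slc25a-19 did so only through their Xins level.

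**Figure D1:**
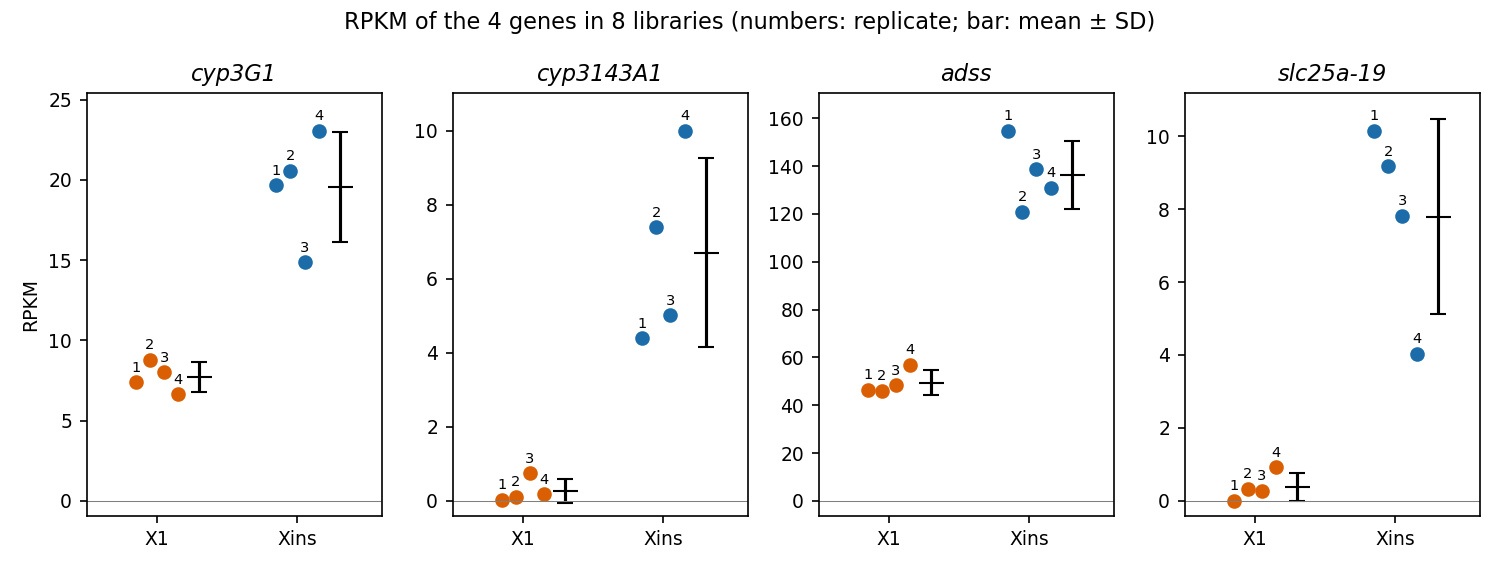
RPKM of cyp3G1, cyp3143A1, adss and slc25a-19 in 4 X1 and 4 Xins libraries, with a separate linear vertical axis for each gene; points are libraries with their replicate number, and the bar beside them is the mean with the SD (n = 4). Every Xins point lies above every X1 point; adss is the most abundant gene in both fractions, and the X1 points of cyp3143A1 and slc25a-19 lie between 0 and 0.929 RPKM.

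cyp3G1, a P450 gene with a gut pattern, measured 7.39, 8.80, 8.02 and 6.64 RPKM in X1 replicates 1 to 4. In Xins replicates 1 to 4 it measured 19.7, 20.6, 14.9 and 23.1 RPKM. The X1 values were close to each other, and the lowest Xins value, in replicate 3, was still above the highest X1 value. The means were 7.71 ± 0.919 RPKM in X1 and 19.6 ± 3.43 RPKM in Xins (SD, n = 4 each), a ratio of 2.54. The difference was -1.23 (SE 0.16; limma adjusted p = 2.25e-05). In X1 the transcript was well measured, with 136 to 213 reads per library, and its X1 mean exceeded that of 59.0% of all transcripts.

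cyp3143A1, the other P450 gene with a gut pattern, was nearly absent from X1. It measured 0.0350, 0.113, 0.754 and 0.178 RPKM in X1 replicates 1 to 4, from 1, 3, 19 and 4 reads. In Xins replicates 1 to 4 it measured 4.38, 7.40, 5.01 and 9.999 RPKM. X1 replicate 3 was the highest, with a 95% Poisson interval of 11.4 to 29.7 reads against an upper bound of at most 10.2 reads in the other X1 libraries. Such intervals cover counting error only, not the spread between libraries. The means were 0.270 ± 0.328 RPKM in X1 and 6.70 ± 2.56 RPKM in Xins (SD, n = 4 each), a ratio of 24.8, and the residual X1 level of 4.03% became 1.62% without X1 replicate 3. The difference was -2.57 (SE 0.25; limma adjusted p = 1.56e-06).

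adss was the most abundant of the 4 genes in both fractions, above 86.1% of all transcripts by its X1 mean and above 94.5% by its Xins mean. It measured 46.5, 46.0, 48.4 and 56.9 RPKM in X1 replicates 1 to 4. In Xins replicates 1 to 4 it measured 155, 121, 139 and 131 RPKM. Both fractions were tight, and the gap between them was wider than either range. The means were 49.5 ± 5.11 RPKM in X1 and 136 ± 14.3 RPKM in Xins (SD, n = 4 each), a ratio of 2.76. The difference was -1.44 (SE 0.13; limma adjusted p = 6.46e-07), and at 994 to 1080 reads per X1 library the residual level did not rest on few reads.

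slc25a-19, the mitochondrial carrier gene, measured 0, 0.328, 0.277 and 0.929 RPKM in X1 replicates 1 to 4. These came from 0, 5, 4 and 12 reads, and the 95% Poisson interval of the count of 0 in X1 replicate 1 reaches 3.69 reads, or 0.225 RPKM. In Xins replicates 1 to 4 it measured 10.2, 9.17, 7.81 and 4.04 RPKM. Xins replicate 4 was the lowest and X1 replicate 4 the highest of their fractions, yet they did not overlap. The means were 0.384 ± 0.391 RPKM in X1 and 7.79 ± 2.68 RPKM in Xins (SD, n = 4 each), a ratio of 20.3. The difference was -2.65 (SE 0.27; limma adjusted p = 2.34e-06), and without X1 replicate 4 the residual X1 level of 4.92% became 2.59%.

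In bulk libraries, fewer cells of a type and less RNA per cell cannot be told apart, so a residual X1 level may be read only as RNA in the fraction. For all 4 genes, the reads summed over the X1 libraries were well above 0. For cyp3143A1 27 reads were summed, against 832 in Xins, which gave a residual of 3.92% (exact 95% interval 2.57% to 5.74%). For slc25a-19 the sums were 21 and 555 reads, and the residual was 4.57% (2.81% to 7.05%). For cyp3G1 it was 39.5% (36.3% to 43.0%) and for adss 36.0% (34.7% to 37.2%). The intervals of cyp3143A1 and slc25a-19 overlapped each other and lay far below those of cyp3G1 and adss, and they cover counting error only.

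Against the mean of the Xins libraries, single X1 libraries held 33.9% to 45.0% of cyp3G1 and 33.7% to 41.8% of adss. For cyp3143A1 the X1 libraries ranged from 0.523% to 11.3%, and for slc25a-19 from 0% to 11.9%. The marker lists measured the same way held 33.6% to 51.8% for the summed gut pattern and 1.34% to 2.68% for the summed AGAT-1 pattern, and AGAT-1 itself held 0.238% to 0.731%. The gut sum in X1 was carried by the 3 transcripts higher in X1, which made up 73.5% of it. Without these 3, single X1 libraries held 6.29% to 20.7% for the gut sum, below every X1 library of cyp3G1 and adss. Over the 20 gut transcripts the median residual was 14.98%, and 17 of 20 had a residual below that of adss, so the level of the sum is not that of a typical gut transcript. X1 replicate 4, the library highest in slc25a-19, was also highest in the summed AGAT-1 pattern (2.68%) and the summed gut pattern (51.8%). X1 replicate 3, the library highest in cyp3143A1, had 47.8% of the summed gut pattern, against 33.6% and 34.1% in replicates 1 and 2. In X1 replicate 4, where the gut sum was highest, cyp3143A1 was at 2.65%, cyp3G1 at its lowest (33.9%) and adss at its highest (41.8%). The highest cyp3G1 level, 45.0%, was in X1 replicate 2, where the gut sum was at 34.1%. The part of other cell types in these residuals was not tested.

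**Figure D2:**
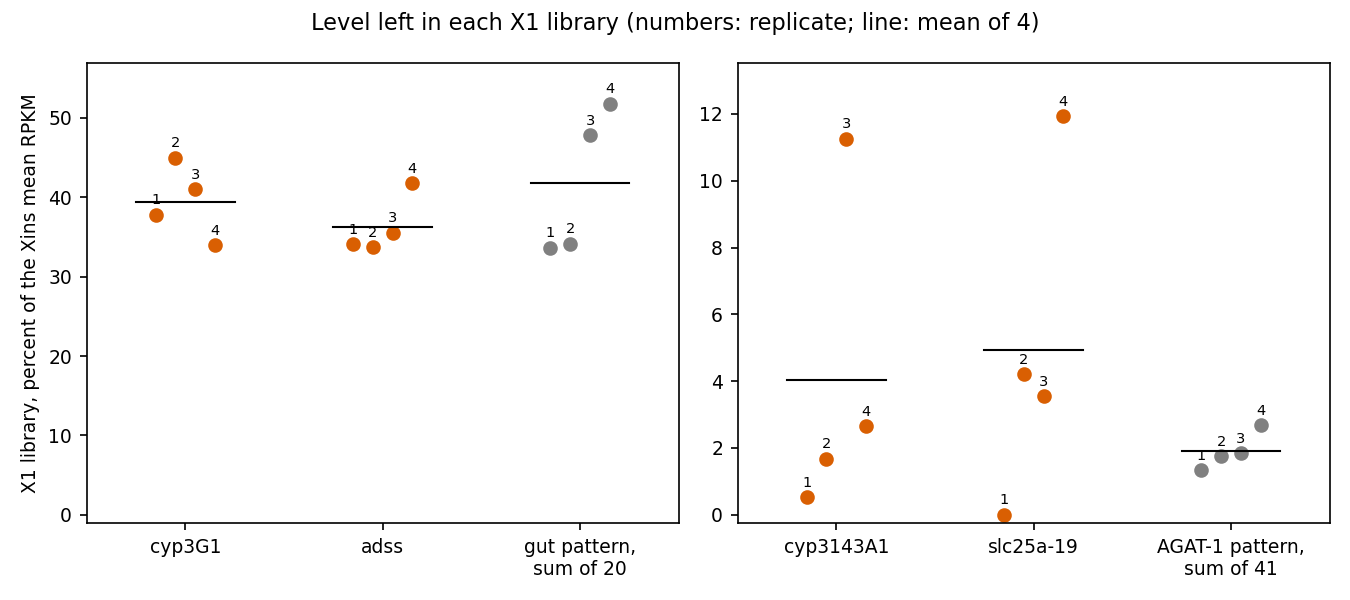
Level of each X1 library as a percent of the mean RPKM of the 4 Xins libraries, on linear axes of different range, for cyp3G1, adss and the summed gut pattern (left) and for cyp3143A1, slc25a-19 and the summed AGAT-1 pattern (right); points are X1 libraries with their replicate number and lines are means of 4. The left items lie between 33.6% and 51.8% and the right items between 0% and 11.9%. X1 replicate 3 is high for cyp3143A1 and X1 replicate 4 for slc25a-19. In the gut sum, 3 transcripts higher in X1 make up 73.5% of the X1 level. Without them the sum lies at 6.29% to 20.7% (not drawn), and the median residual of the 20 gut transcripts is 14.98%.

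Within Xins, the genes did not share one order of libraries. cyp3G1 and cyp3143A1 were both highest in Xins replicate 4, at 118% and 149% of their Xins means, whereas slc25a-19 was lowest there, at 51.8%. The summed gut pattern was high in Xins replicates 2 and 4 (129% and 122% of its mean) and low in replicates 1 and 3 (74.5% and 75.0%), and cyp3143A1 was high and low in the same libraries, at 110% and 149% against 65.5% and 74.8%. A single transcript weighs heavily in this gut sum of 241 to 417 RPKM. SMED30018252 (hit Digestive cysteine proteinase 2) averaged 155 RPKM in Xins and ranged from 82.3 to 228 RPKM. The summed AGAT-1 pattern was lowest in Xins replicate 4, at 77.8%, the library in which slc25a-19 was lowest. adss varied least, between 88.7% and 114% of its Xins mean. With 4 libraries these are descriptions, and whether the makeup of the libraries set them was not tested.

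Whether the genes differ from each other in how they are divided between the fractions was asked for all 6 pairs, with an exact two-sided permutation test over the 8 libraries and Benjamini-Hochberg adjustment over the 6 pairs. The smallest p that 4 against 4 libraries allow is 0.0286. On the log2(RPKM + 1) scale no pair passed, with an adjusted p of 0.0857 for the 4 pairs that join cyp3G1 or adss to cyp3143A1 or slc25a-19. The difference of cyp3G1 was less negative than that of cyp3143A1 by 1.35 and than that of slc25a-19 by 1.42. That of adss was less negative than that of slc25a-19 by 1.20, and cyp3143A1 minus adss was -1.13. On log2 reads with 0.5 added to each, a scale chosen after seeing the data, the same 4 pairs differed by 3.81, 3.62, 3.48 and -3.67 in that order, and each had an exact adjusted p of 0.0429. The call therefore depends on the scale, since adding 1 RPKM compresses genes whose X1 level is below it.

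Neither scale separated the genes within a level. cyp3G1 minus adss differed between fractions by 0.22 (exact permutation adjusted p = 0.514), and cyp3143A1 minus slc25a-19 by 0.07 (exact permutation adjusted p = 0.943). The libraries of X1 and Xins overlapped in both of these pairs, and on this scale also in cyp3G1 minus slc25a-19 and in cyp3143A1 minus adss. A p that misses the threshold does not show that these genes are divided alike.

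Among the listed P450 transcripts, cyp3G1 had the second highest mean in X1, 7.71 RPKM. It lay between SMED30005941 (7.93 ± 1.73 RPKM) and SMED30034713 (7.17 ± 2.08 RPKM), whose X1 libraries overlapped with its own. With protein hits in the study's tables as the guide, 26 P450 transcripts were listed, of which 25 were in the table, and these lists come from RNAi responses rather than from a search of all P450 genes. The summed P450 level was 36.7 ± 4.27 RPKM in X1 and 372 ± 36.3 RPKM in Xins (SD, n = 4 each). cyp3G1 supplied 21.0% of that sum in X1 and 5.25% in Xins, and it ranked 2 of 25 by its X1 mean and 5 of 25 by its Xins mean. By the percent of the Xins mean left in X1 it ranked 5 of 25. cyp3143A1 supplied 0.735% of the X1 sum and ranked 12 by its X1 mean and 10 by its Xins mean. A mean of under 1 RPKM was found for 19 of the 25 in X1 and for 6 in Xins, and 4 exceeded 5 RPKM in X1.

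Apart from cyp3G1 and cyp3143A1, 16 P450 transcripts were tested, of which 13 were higher in Xins, 1 was higher in X1 and 2 were not called. Their median difference was -2.59, against -0.11 for all tested transcripts, but 11 of the 16 had an X1 mean under 1 RPKM and passed the filter only through Xins, so nothing is read from this count and median. Of the 13, SMED30035750, lost its call after quantile normalization (limma adjusted p = 0.0621). The remaining 7 in the table were too low to be tested, with Xins means of 0.443 to 1.02 RPKM and X1 means of at most 0.239 RPKM. The 3 most abundant in Xins were P450 genes with an AGAT-1 mesenchymal pattern, alone or with the pharynx. cyp3140A1 (hit Cytochrome P450 1A1) averaged 1.40 RPKM in X1 and 106 RPKM in Xins, with a difference of -5.64 (SE 0.35; limma adjusted p = 3.07e-08). cyp3142A1 had 0.316 and 69.5 RPKM and a difference of -5.75, and cyp3141A1 had 0.272 and 47.6 RPKM and a difference of -5.28.

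The residual X1 level of P450 transcripts was also set beside their in situ pattern, with no test. The 4 transcripts with an AGAT-1 mesenchymal pattern kept 0.454% to 1.33% of their Xins mean. The 5 with a gut pattern, cyp3G1 and cyp3143A1 among them, kept 0.610% to 39.4%, with a median of 4.03%, the value of cyp3143A1. That median includes SMED30016464, which had too few X1 reads for a residual of its own. The other gut P450 transcripts were SMED30021752 (hit Cytochrome P450 2L1), at 13.7 RPKM in Xins and a residual of 0.610%, SMED30004606 (hit Cytochrome P450 2J6), at 4.85 RPKM and 17.3%, and SMED30016464 (hit Cytochrome P450 3A24), at 0.735 RPKM in Xins, from 43 reads, and with 1 read over all X1 libraries, too few for a residual. cyp3G1 thus had both the highest Xins level and the highest residual of the gut group. Outside these groups, 2 transcripts seen in the gut and another tissue kept 1.56% (SMED30028574) and 2.62% (SMED30003449), from 14 and 11 X1 reads. The 1 without a clear pattern kept 0%. The 13 not in the screen kept 3.58% to 147%, with a median of 13.0%, some of them from few X1 reads.

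A few P450 transcripts were not called as lower in X1. SMED30005941, with the hit Cholesterol 24-hydroxylase, a P450 that in mammals turns over brain cholesterol, was the 1 called as higher in X1. It had a mean of 7.93 RPKM in X1 and 5.38 RPKM in Xins, with all X1 libraries above all Xins libraries and a difference of 0.47 (SE 0.17; limma adjusted p = 0.0249). That call was lost without X1 replicate 4 (limma adjusted p = 0.0784), Xins replicate 2 (0.0643) or Xins replicate 3 (0.0539) and under 2 other scalings. The 2 tested and not called, named after their values were seen, were SMED30034713 (hit Cytochrome P450 3A14) with 7.17 and 6.57 RPKM in X1 and Xins, and SMED30010476 (hit Cytochrome P450 2J6) with 5.89 and 8.76 RPKM. After quantile normalization the first of these was called as higher in X1 (difference 0.54; limma adjusted p = 0.0392). Without Xins replicate 4 the second was called as higher in Xins (difference -0.64; limma adjusted p = 0.0416). The transcripts with a 3A hit thus had residuals of 4.03% (cyp3143A1), 39.4% (cyp3G1) and 109% (SMED30034713), and the other, SMED30016464, had 1 read over all X1 libraries. One P450 transcript, SMED30001471 (hit Cytochrome P450 2B11; also named after its values were seen), had 0 reads in all X1 libraries and 1093 in Xins, so it was at least 302-fold higher in Xins, with 3 reads over the X1 group as the floor.

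**Figure D3:**
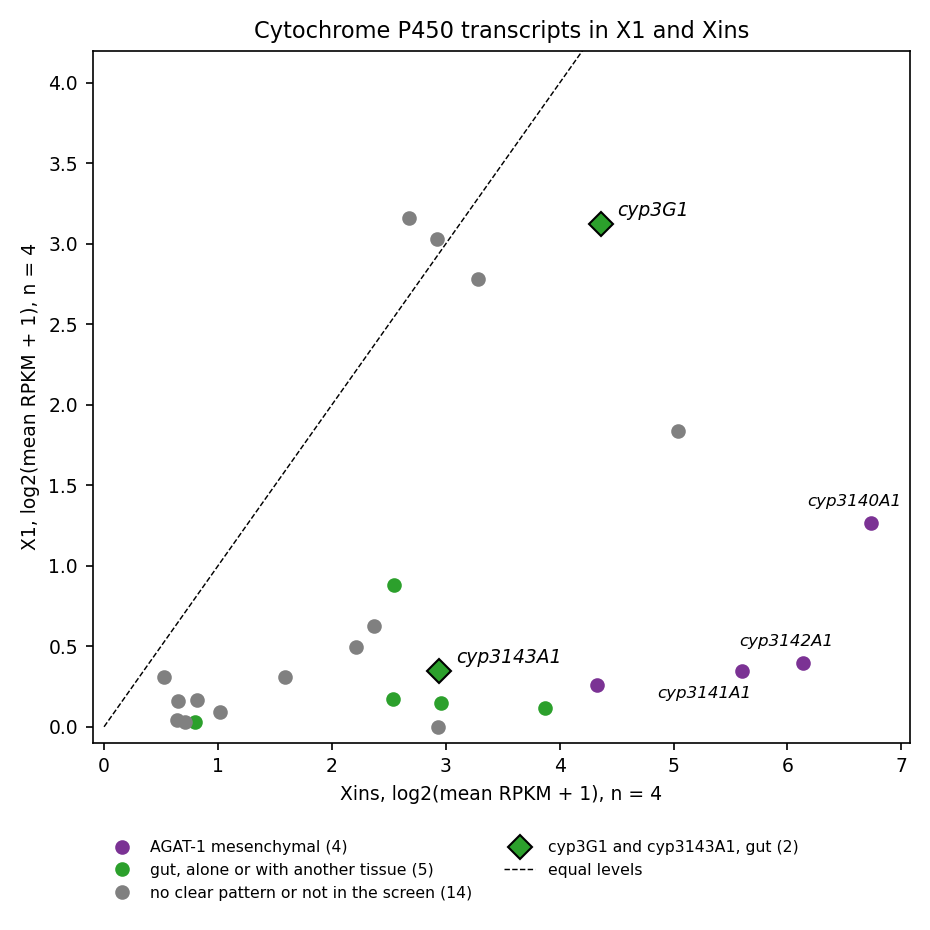
Mean level of 25 P450 transcripts in X1 (vertical) and Xins (horizontal), each as log2(mean RPKM + 1) over 4 libraries; colours give the in situ pattern from the study, diamonds are cyp3G1 and cyp3143A1, and the dashed line marks equal levels. Most points lie near the horizontal axis, 19 of 25 with an X1 mean under 1 RPKM, whereas cyp3G1 lies at 7.71 (X1) and 19.6 RPKM (Xins).

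The partners that pass electrons to P450 enzymes were well expressed in both fractions. NADPH-cytochrome P450 reductase (SMED30025783) had means of 96.9 (X1) and 109 RPKM (Xins), and its difference of -0.16 was not called (SE 0.14; limma adjusted p = 0.295), although it was called as higher in Xins under 2 other scalings (-0.35 and -0.42). Cytochrome b5 (SMED30012358), which can donate an electron to some P450 enzymes, had 120 and 366 RPKM and was higher in Xins (difference -1.61). NADH-cytochrome b5 reductase 3 (SMED30009541), which reduces cytochrome b5, had 169 and 273 RPKM and was also higher in Xins (difference -0.68; limma adjusted p = 0.00103). The reductase thus kept 89.2% of its Xins level in X1, where the summed P450 level was 36.7 against 372 RPKM.

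Of 9 other purine enzymes listed by protein hit, 5 were higher in X1, 1 was higher in Xins and 3 were not called, with a median difference of 0.48. The list came from the study's tables rather than from a search of all purine enzymes. Of all tested transcripts, 77.2% were called, 35.5% as higher in X1 and 41.7% as higher in Xins. The listed enzymes leaned more toward X1 than that, but with only 9 transcripts nothing is read from the counts. adss went the other way from the 2 listed enzymes of IMP synthesis. The transcript with the hit Trifunctional purine biosynthetic protein adenosine-3 (SMED30025401), which catalyses early steps of purine synthesis, had means of 107 (X1) and 26.9 RPKM (Xins) and a difference of 1.96 (SE 0.13; limma adjusted p = 5.41e-08). The transcript with the hit Bifunctional purine biosynthesis protein PURH (SMED30026515), which completes IMP, had 164 and 38.6 RPKM and a difference of 2.05 (SE 0.13; limma adjusted p = 2.59e-08). In both, all X1 libraries lay above all Xins libraries, whereas adss had 49.5 (X1) and 136 RPKM (Xins).

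The other branch from IMP, toward guanine nucleotides, begins with IMP dehydrogenase. The transcript with the hit Inosine-5'-monophosphate dehydrogenase 2 (SMED30028961) had 59.6 (X1) and 42.6 RPKM (Xins), a difference of 0.48 (limma adjusted p = 0.00307) that was not called under 2 other scalings (0.29 and 0.23). The enzymes that open the branches from IMP thus stood at 49.5 RPKM (adss) and 59.6 RPKM (this transcript) in X1, and at 136 and 42.6 RPKM in Xins.

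Of the salvage enzymes, purine nucleoside phosphorylase (SMED30030323), which releases bases from inosine and guanosine, resembled adss. It had 95.6 (X1) and 234 RPKM (Xins), a residual of 40.9% and a difference of -1.29 (limma adjusted p = 2.68e-06). Adenosine kinase 1 (SMED30003196), which phosphorylates adenosine to AMP, was higher in X1, at 525 against 342 RPKM (difference 0.61; limma adjusted p = 0.00341). Of 2 transcripts with the hit Adenosine deaminase, SMED30008618 was higher in X1, at 14.3 against 3.26 RPKM (difference 1.86), and SMED30003138 was not called, at 17.7 against 14.9 RPKM, except after quantile normalization (limma adjusted p = 0.0305). The adenylate kinase transcripts SMED30010721 (Adenylate kinase 2, 41.1 and 43.5 RPKM) and SMED30034168 (AK3, 109 and 87.7 RPKM), which interconvert adenine and guanine nucleotides, were not called either, although AK3 was called as higher in X1 without X1 replicate 1 (limma adjusted p = 0.0259) or Xins replicate 3 (0.0393). Adenylate kinase 2 was called as higher in Xins with library sizes from summed reads (difference -0.34; limma adjusted p = 0.0176).

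All 4 other mitochondrial carriers examined were called, 2 as higher in X1 and 2 as higher in Xins, and their median difference was -0.07. With 77.2% of all tested transcripts called, these counts say little about carriers. The carrier most like slc25a-19 was SMED30001325 (hit Mitochondrial arginine transporter BAC2), with 1.25 and 14.6 RPKM, a residual of 8.53% and a difference of -2.84 (SE 0.24; limma adjusted p = 4.46e-07).

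The remaining carriers differed less. SMED30033672 (hit Kidney mitochondrial carrier protein 1) was higher in Xins, at 26.1 against 17.6 RPKM (difference -0.55; limma adjusted p = 0.00387). SMED30020356 (hit Mitochondrial carrier homolog 2, an outer membrane protein) was higher in X1, at 288 against 175 RPKM (difference 0.70). SMED30024516 (hit Mitochondrial folate transporter/carrier) was also higher in X1, at 72.9 against 54.6 RPKM (difference 0.42; limma adjusted p = 0.0232), but its libraries overlapped between fractions. That call was lost without X1 replicate 3 (limma adjusted p = 0.0513), X1 replicate 4 (0.0681), Xins replicate 2 (0.0538) or Xins replicate 4 (0.0583) and under 2 other scalings.

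**Figure D4:**
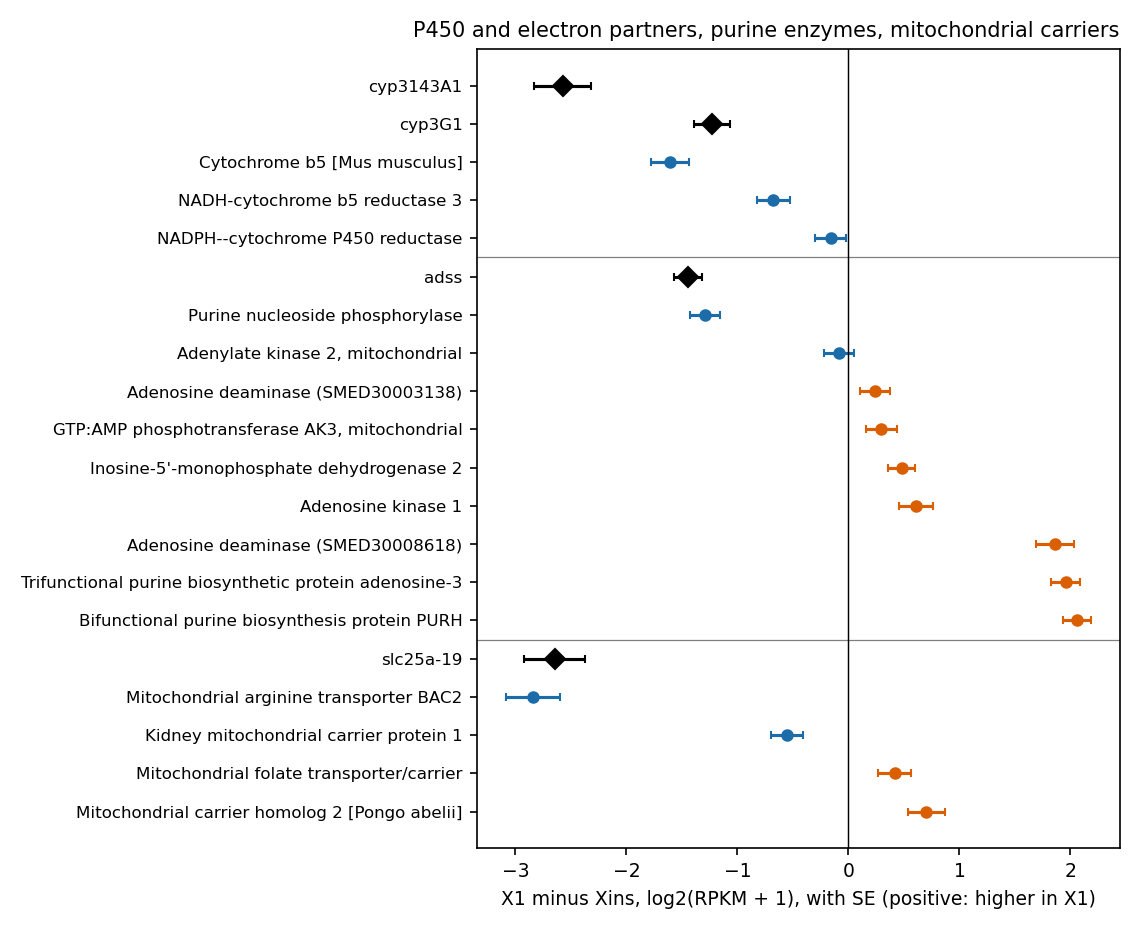
X1 minus Xins difference on the log2(RPKM + 1) scale with its SE from limma (4 libraries per fraction) for the 4 genes (diamonds) and the listed P450 electron partners, purine enzymes and mitochondrial carriers (circles; positive values are higher in X1), named by protein hit. adss at -1.44 lies opposite to the 2 listed enzymes of IMP synthesis at 1.96 and 2.05, and slc25a-19 at -2.65 lies near the arginine transporter hit at -2.84.

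Transcripts most like each gene were sought by the root-mean-square difference of log2(RPKM + 1) over the 8 libraries, after each transcript's own mean was subtracted. Of 15562 tested transcripts, 1349 had a name or protein hit in the study's tables and could be named. Nearest to adss was SMED30032153 (hit V-type proton ATPase subunit B, a part of the pump that acidifies organelles), at 0.06 and with almost the same levels, 49.6 (X1) and 141 RPKM (Xins). Next was SMED30030329 (hit Surfeit locus protein 4 homolog, a cargo receptor of the early secretory pathway), at 0.09, with 54.8 and 144 RPKM. For cyp3G1 they were SMED30000200 (hit Polypeptide N-acetylgalactosaminyltransferase 1, which starts O-linked sugar chains), at 0.12, and SMED30014753 (hit NACHT and WD repeat domain-containing protein 2), at 0.13. Their residuals were 35.8% and 19.1%, against 39.4% for cyp3G1, and SMED30014753 was low, at 0.402 (X1) and 2.10 RPKM (Xins). Counting those without a name, 1 and 6 tested transcripts were nearer to adss than its pair, and 8 and 17 to cyp3G1.

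Among the transcripts that could be named, nearest to cyp3143A1 were SMED30025368 (hit Golgi-associated plant pathogenesis-related protein 1), at 0.15, with 0.311 (X1) and 6.82 RPKM (Xins), and SMED30002366 (hit cAMP-dependent protein kinase regulatory subunit), at 0.21. Those nearest to slc25a-19 were SMED30000934 (hit Putative transporter SVOPL), at 0.27, and litaf (SMED30035250), at 0.28, a gene of the same in situ screen with 47.3 (X1) and 264 RPKM (Xins). SMED30000934 and litaf kept 12.8% and 17.9% of their Xins levels in X1, against 4.92% for slc25a-19. Counting also those without a name, 22 and 33 tested transcripts were nearer to slc25a-19 than these, and 1 and 18 were nearer to cyp3143A1 than its pair. Among the 4 genes, cyp3G1 and adss lay nearest to each other, at 0.29, and every other pair was 0.65 to 0.87 apart. The measure follows the fraction difference on the log2(RPKM + 1) scale above all, so near transcripts can have unlike residuals. By this measure 862 tested transcripts were nearer to cyp3G1 than adss was.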

How the data were processed

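In all, 4 X1 and 4 Xins libraries were compared. The authors deposited RPKM values for 17882 transcripts. The submitters' processing notes name CASAVA 1.8.2, Bowtie and edgeR, with no settings or transcript set stated for the sorted cells. Reads of near-identical P450 or carrier transcripts could be split or dropped. All 17882 rows gave whole reads within 0.001 of a read (0 of 300 perturbed rows did). Divided by its recovered reads, the library size behind the RPKM was 0.823 to 1.02 for X1 libraries and 1.02 to 1.15 for Xins libraries, so the authors had already scaled the RPKM between libraries.

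Values were taken as log2(RPKM + 1), and transcripts with a mean of at least 1 RPKM were fitted with limma 3.58.1 (R 4.3.3) with a mean-variance trend, X1 minus Xins, two-sided, with Benjamini-Hochberg adjustment over 15563 transcripts. Called means an adjusted p under 0.05. Exact permutation tests and counting intervals (Poisson for reads, Clopper-Pearson for the residual) used Python 3.11.15 with scipy 1.17.1. Alternatives were other pseudocounts, filters and scalings, voom on recovered reads, a replicate block and leaving out each library. Besides the 4 genes, named transcripts are the P450 genes the study named, those highest in Xins or most different, and those with a gut pattern, the listed electron partners, purine enzymes and carriers (1 carrier transcript is not reported here), the 2 nearest in pattern to each gene, and AGAT-1, the Piwi-like protein and PCNA as checks. The genes and lists were chosen with earlier results of these data known. No genome or coordinates were used.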

Additional observations from a re-analysis of the deposited data

Results flagged for a closer look

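Among 36 transcripts examined (the 4 genes and the tested P450, electron partner, purine and carrier transcripts), a library stood far from the other 3 of its fraction in 2 of 72 groups, where chance alone gives about 1 in 20. Neither was one of the 4 genes. cyp3142A1 was at 0.658 RPKM in X1 replicate 3 and at 0.166 to 0.246 RPKM in the other X1 libraries. SMED30003138, an adenosine deaminase transcript, was at 19.4 RPKM in X1 replicate 4 and at 16.9 to 17.3 RPKM in the other X1 libraries.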

How the results depend on the processing

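All 4 genes kept their direction and their call in the 72 refits run (18 for each), including an exact permutation test at the smallest p it allows, 0.0286. A minimum mean of 5 RPKM gave no value for cyp3143A1 and slc25a-19. Size moved with the scale for the 2 genes low in X1. The cyp3143A1 difference was -4.49 with a pseudocount of 0.1, -1.13 with 5 and -5.18 with voom, and that of slc25a-19 was -4.38, -1.22 and -5.03. With one library left out, the differences ran from -1.35 to -1.15 for cyp3G1, -2.74 to -2.38 for cyp3143A1, -1.51 to -1.38 for adss and -2.89 to -2.50 for slc25a-19. Quantile normalization moved the median of all tested transcripts from -0.11 to 0.25, a common sum of RPKM to -0.27 and library sizes from summed reads to -0.32, and relative to these shifts the 4 genes stayed lower in X1. Calls higher in X1 were 45.9% of all calls, and 57.2% after quantile normalization.

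Pairs of genes were less stable. With a pseudocount of 0.1, cyp3G1 minus cyp3143A1 (3.17), cyp3G1 minus slc25a-19 (3.06), adss minus slc25a-19 (2.92) and cyp3143A1 minus adss (-3.03) reached an exact permutation adjusted p of 0.0429. On log2 reads they were 3.81, 3.62, 3.48 and -3.67. With a pseudocount of 5, cyp3143A1 minus adss turned to 0.25 and adss minus slc25a-19 to -0.15. cyp3143A1 minus slc25a-19 turned to -0.11 with a pseudocount of 0.1 and to -0.19 on log2 reads, and ran from -0.21 to 0.51 with one library left out. The residual of cyp3G1 was 34.4% with a common sum of RPKM and 33.0% with summed reads, and that of adss 31.4% and 30.2%.

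Replicate numbers are shared by the labels, but deviations of same-numbered libraries correlated at -0.187 to 0.269, over 0.1 in 1 of 4 pairs, so they were not treated as pairs. A replicate block called 11911 transcripts against 12011 without it, and left the differences of the 4 genes at -1.23, -2.57, -1.44 and -2.65, all called. It kept 24 of the listed P450, purine and carrier transcripts called, and permutation within replicate numbers cannot go below 0.125 for a pair of genes. The 24 became 30 with no filter on low values and 25 after quantile normalization. A minimum mean of 5 RPKM called 8088 transcripts. Depth limits the residual level of cyp3143A1 (27 reads over X1) and slc25a-19 (21 reads).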
